A study of Arabidopsis thaliana with 10 samples.

Results

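The disease resistance probe sets of the Arabidopsis ATH1 array were followed in samples labelled as leaves of Ri17, an RNA interference line against JAV1, and of Col-0, the wild type, after methyl jasmonate (MeJA), after wounding and without treatment. A probe set belonged to the group when its deposited description contained the words "disease resistance" in any case, and 239 of the 22746 probe sets other than controls did. The descriptions date from the array's design. Of the 239 probe sets, 140 were paired with 1 gene by the platform annotation, 10 with several genes, and 5 were named from a description that states the gene itself. The remaining 84 have no gene name here and are given by probe set ID.

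Plants recognise pathogen effectors inside the cell with resistance proteins that carry a nucleotide-binding site and leucine-rich repeats (NBS-LRR proteins). They begin either with a TIR domain, as RPP1, RPP5, RPS4 and tobacco N do, or with a coiled coil, as RPS2, RPM1 and RPP8 do, and the TIR type signals through EDS1 with its partners PAD4 and SAG101. The tomato Cf and Hcr proteins are different: they are receptor-like proteins with leucine-rich repeats outside the cell and no nucleotide-binding site. Jasmonate and salicylate defences often work against each other in leaves, and JAV1 is a VQ-motif repressor of jasmonate defence.

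The words of the descriptions did not bear out the name NBS-LRR for the whole group. Descriptions that compare the protein with RPP1, RPP5, RPS4, N or a TIR domain made up 66 probe sets, called TIR-type below, and those that name RPS2, RPM1, RPP8, RPP13, RFL1 or NBS/LRR proteins made up 29, called CC-type. A further 45 named tomato Cf or Hcr proteins or only leucine-rich repeats and are called Cf/LRR-type. There were 13 pea disease resistance response (dirigent-like) entries and 10 entries for other named proteins such as EDS1, SAG101 and CPR5. The other 76 descriptions say only that a protein resembles a disease resistance protein and are called unspecified, so they may hold genes of any of these types.

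Each of the 5 treatments was measured once in each genotype, which gave 10 arrays and 1 array per group. The groups were Ri17 and Col-0 leaves 1 h and 4 h after 100 µM MeJA, 30 min and 60 min after wounding, and untreated. All plants were 21 days old. Wounding was crushing of 4 rosette leaves with a forceps, with about 30% of each leaf damaged. The plants were grown in MS medium, the labels call those given MeJA seedlings, and no mock treatment is named. Ri17 is a single RNAi line, and JAV1 has no named probe set here, so its knockdown was not checked. Both treatments were set against the same untreated pair of arrays, and no group has a repeat of its own.

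The arrays were scaled by the authors to one trimmed mean of signal (500.1), and between 56.8% and 60.9% of all probe sets were called Present on each. Of 8 root markers, 2 had a named probe set. The root beta-glucosidase PYK10 read 1158 (Ri17) and 902 (Col-0) at MeJA 1 h and 2458 (Ri17) and 2275 (Col-0) at MeJA 4 h. It read 22.0 (Ri17) and 156 (Col-0) at 30 min and 244 (Ri17) and 97.7 (Col-0) at 60 min after wounding, and 27.3 (Ri17) and 95.3 (Col-0) in untreated plants. EXPA7, a root hair expansin, was not called Present on 2 or more arrays and did not rise with MeJA. It read 23.3 (Ri17) and 14.4 (Col-0) at MeJA 1 h and 6.3 (Ri17) and 12.8 (Col-0) at 4 h. Untreated, it read 40.2 (Ri17) and 22.0 (Col-0), and on the wounded arrays 4.2 to 44.7. The summed signal of both markers was 916 to 2464 on the MeJA arrays, nearly all of it from PYK10. The sum was 65.7 to 248 on the wounded arrays and 67.5 and 117 on the untreated arrays. The leaf marker RCA (Rubisco activase), the only 1 of 8 leaf markers with a named probe set, lay between 17634 and 36669 on all 10 arrays. PYK10 therefore moved with MeJA treatment, with log2 differences from untreated of 4.09 (adjusted p = 0.00576) at 1 h and 5.30 (adjusted p = 0.00157) at 4 h. The labels state leaves for all 10 arrays, but whether the MeJA samples also held root tissue is not known from them, so in every comparison of MeJA with untreated or wounded samples the treatment and a difference in tissue cannot be told apart. In bulk samples, fewer cells of a type and less RNA per cell cannot be told apart.

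Fewer disease resistance probe sets were detected after MeJA. Present calls covered 36.8% to 40.2% of the 239 on the 4 MeJA arrays, 45.6% to 58.2% on the wounded arrays, and 50.2% (Ri17) and 53.6% (Col-0) on the untreated arrays. The lowest shares among the Cf/LRR-type, CC-type, TIR-type and unspecified classes were those of the Cf/LRR-type: 20.0% (Ri17) and 24.4% (Col-0) of its 45 probe sets were Present at MeJA 1 h, against 51.1% (Ri17) and 62.2% (Col-0) untreated. TIR-type probe sets stood at 45.5% (Ri17) and 43.9% (Col-0) at MeJA 1 h, against 51.5% in each untreated array. In all, 63 of the 239 were Present on every array and 70 on none. Tests were run on 147 that were Present on 2 or more arrays, a share of 61.5% against 67.6% of all probe sets. Of these 147, 5 were Present in 1 condition only, so they entered through the condition where they were high.

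**Figure D1:**
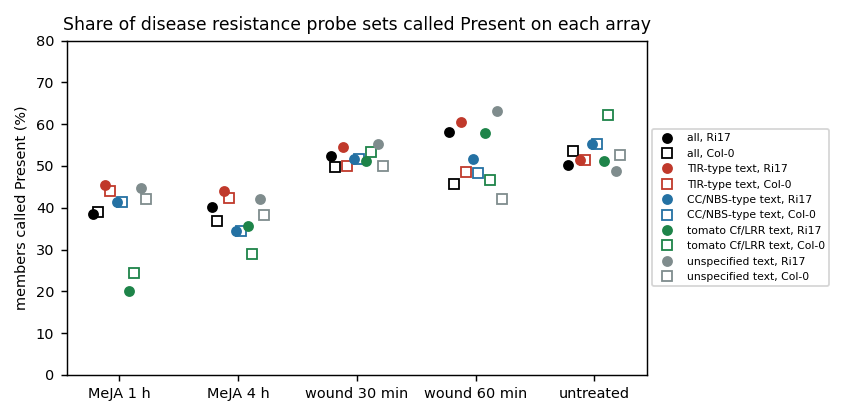
Share of disease resistance probe sets called Present on each array, in percent, for all 239 and for 4 description classes, with filled circles for Ri17 and open squares for Col-0. The MeJA arrays lie at 36.8% to 40.2% for all 239, and Cf/LRR-type probe sets at 20.0% and 24.4% at MeJA 1 h.

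MeJA lowered many more disease resistance probe sets than it raised. At 1 h, 54 of the 147 fell and 11 rose, where 15.8% of all 15382 probe sets tested fell and 15.7% rose (31.5% together). At 4 h, 61 fell and 11 rose, where 18.7% of all probe sets fell and 18.8% rose (37.5% together). The median log2 difference of the 147 was -0.57 at 1 h and -0.69 at 4 h, against 0.01 and 0.00 over all probe sets. The test was limma's moderated test on log2 signal with genotype and condition as additive terms, 2 arrays on each side, adjusted over all probe sets tested. These counts rest on pairs of arrays: without the Ri17 or the Col-0 array at MeJA 1 h the 65 calls at 1 h became 35 and 39, and the 72 calls at 4 h became 43 when the Col-0 array at MeJA 4 h was left out and 46 when the Ri17 one was. In every one of these fits more members fell than rose.

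Falls under MeJA were counted in each class. Of 31 Cf/LRR-type probe sets tested, 18 fell and 2 rose at MeJA 1 h with a median of -1.24, and 16 fell and 2 rose at 4 h with a median of -0.87. Of 17 CC-type probe sets, 8 fell and 0 rose at each time, with a median of -0.81 at both. Of 40 TIR-type probe sets, 12 fell and 2 rose at 1 h and 17 fell and 5 rose at 4 h, with medians of -0.29 and -0.61. Of 49 unspecified probe sets, 11 fell and 7 rose at 1 h and 15 fell and 4 rose at 4 h. The differences between classes themselves were not tested.

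**Figure D2:**
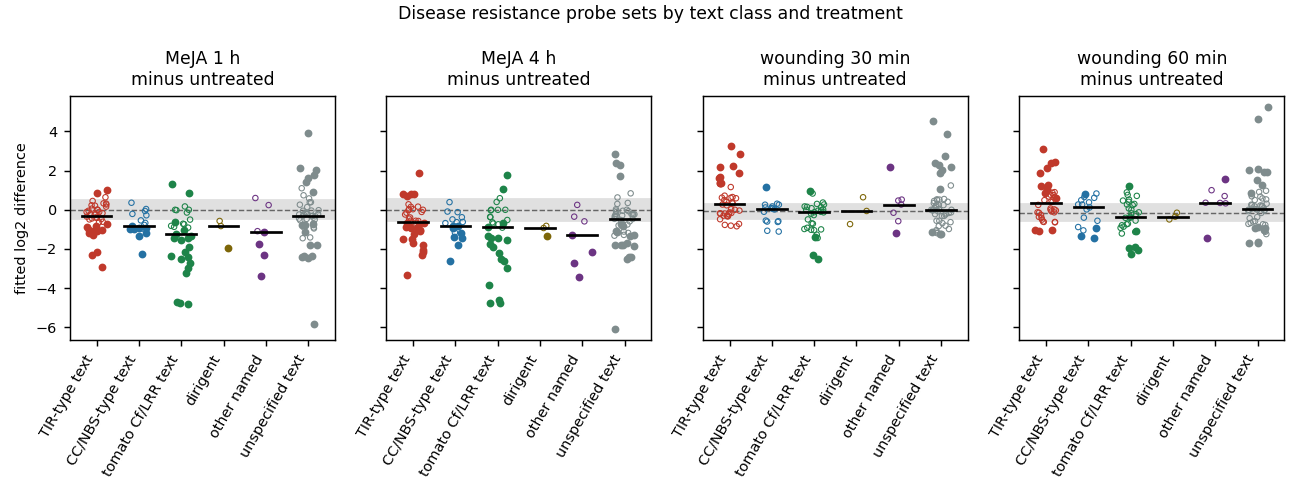
Fitted log2 difference from untreated for each of the 147 tested probe sets, by description class and treatment. Filled points passed an adjusted p of 0.05, black bars are class medians, the grey band spans the middle of all 15382 probe sets between their quartiles and the dashed line is their median. Most filled points lie below 0 under MeJA (54 and 61 lower, 11 higher at each time) and above 0 at 30 min of wounding (22 higher, 7 lower).

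The largest falls under MeJA brought strongly expressed probe sets to the detection floor (a signal of 37.7). 267546_at, described only as a putative disease resistance protein, read 53.6 (Ri17) and 10.9 (Col-0) at MeJA 1 h and 18.9 (Ri17) and 5.6 (Col-0) at 4 h, against 2209.5 (Ri17) and 2941 (Col-0) untreated. It was at least 56.7-fold lower (adjusted p = 0.000177) at 1 h and at least 67.6-fold lower (adjusted p = 9.22e-05) at 4 h, given as bounds because MeJA arrays lay at or under the floor. All 4 MeJA arrays lay far below the untreated pair, and the wounded arrays, at 2103 to 6174, did not.

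3 Cf/LRR-type probe sets were likewise brought to the floor or near it by MeJA. 257100_at, likened to a tomato protein with leucine-rich repeats, read 22.6 (Ri17) and 43.5 (Col-0) at MeJA 1 h and 29.1 (Ri17) and 44.8 (Col-0) at 4 h, against 788 (Ri17) and 1618 (Col-0) untreated. 257763_s_at, likened to tomato Hcr2-5B, read 12.6 (Ri17) and 20.4 (Col-0) at 1 h and 17 (Ri17) and 3.5 (Col-0) at 4 h, against 1096 (Ri17) and 971 (Col-0) untreated. 256431_s_at, likened to another tomato resistance protein, read 17 (Ri17) and 33.8 (Col-0) at 1 h and 43.1 (Ri17) and 27.9 (Col-0) at 4 h, against 856 (Ri17) and 1136 (Col-0) untreated. On each probe set the 4 MeJA arrays sat at or near the floor and the groups did not overlap. At 1 h 257100_at was at least 27.9-fold lower (adjusted p = 0.00422), 257763_s_at at least 27.4-fold lower (adjusted p = 0.00106) and 256431_s_at at least 26.2-fold lower (adjusted p = 0.00216). The ID endings of the last 2 mark probe sets that can match several transcripts, so closely related genes may share their signal.

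Another Cf/LRR-type probe set, 254741_s_at (likened to Hcr9-9A), stayed detected on all 10 arrays and fell too. It read 176 (Ri17) and 184 (Col-0) at MeJA 1 h and 129 (Ri17) and 111 (Col-0) at 4 h, against 1371 (Ri17) and 2092 (Col-0) untreated, log2 differences of -3.24 ± 0.49 (SE, adjusted p = 0.00305) and -3.82 ± 0.49 (SE, adjusted p = 0.0012). Of the 27 tested probe sets likened to tomato Cf or Hcr proteins by name or accession, 15 fell and 2 rose at 1 h, over a range of log2 differences from -4.80 to 1.30. 249393_at (Cf-4-like) read 395 (Ri17) and 259.9 (Col-0) at MeJA 1 h and 1547 (Ri17) and 1234 (Col-0) at 4 h, against 856 (Ri17) and 981 (Col-0) untreated. It fell at 1 h, with a log2 difference of -1.52 ± 0.24 (SE, adjusted p = 0.00385), and at 4 h the difference from untreated, which did not pass, was 0.59 ± 0.24 (SE, adjusted p = 0.0994).

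EDS1, the lipase-like protein through which TIR-type receptors signal, was among the members that fell most. It read 49.9 (Ri17) and 101 (Col-0) at MeJA 1 h and 82.4 (Ri17) and 56.1 (Col-0) at 4 h, against 781 (Ri17) and 684 (Col-0) untreated, with log2 differences of -3.37 ± 0.51 (SE, adjusted p = 0.00299) and -3.43 ± 0.51 (SE, adjusted p = 0.00218). Its partner SAG101 read 91.8 (Ri17) and 69.9 (Col-0) at 1 h and 66.3 (Ri17) and 53.4 (Col-0) at 4 h, against 214 (Ri17) and 331 (Col-0) untreated, with differences of -1.73 ± 0.29 (SE, adjusted p = 0.00448) and -2.16 ± 0.29 (SE, adjusted p = 0.00139). For both genes all 4 MeJA arrays lay below the other 6. The next 2 proteins were chosen after their values were seen. CPR5, a negative regulator of defence and senescence, fell by 1.14 on the log2 scale at 1 h and by 1.31 at 4 h (adjusted p = 0.00742 and 0.00344). RTM1, a jacalin-like protein that restricts movement of a potyvirus, had differences of 0.24 (adjusted p = 0.617) and 0.25 (adjusted p = 0.595). CPR5 also read lower after wounding than untreated. Its signals were 556 (Ri17) and 705 (Col-0) at 30 min and 536 (Ri17) and 505 (Col-0) at 60 min. Untreated, they were 1255 (Ri17) and 1573 (Col-0).

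Among the characterised receptor genes, RPS2 fell at both MeJA times and RPM1 only passed the test at 4 h. RPS2, a CC-type receptor for a Pseudomonas effector, read 97.1 (Ri17) and 80.7 (Col-0) at 1 h and 117 (Ri17) and 86.5 (Col-0) at 4 h, against 237 (Ri17) and 212 (Col-0) untreated, with log2 differences of -1.34 ± 0.17 (SE, adjusted p = 0.00129) and -1.16 ± 0.17 (SE, adjusted p = 0.00189). RPM1, a CC-type receptor that guards the same host protein, RIN4, read 263 (Ri17) and 273 (Col-0) at 1 h and 65.2 (Ri17) and 95.3 (Col-0) at 4 h, against 226 (Ri17) and 194 (Col-0) untreated. The 2 arrays at 4 h were the lowest of the 10 for RPM1, while those at 1 h lay above the untreated pair. Its differences from untreated were 0.36 ± 0.25 (SE, adjusted p = 0.328) at 1 h and -1.41 ± 0.25 (SE, adjusted p = 0.00496) at 4 h, and the difference between the times, 4 h minus 1 h, was -1.77 ± 0.25 (SE, adjusted p = 0.00698). That last call is lost without either 1 h array or without the Ri17 array at 4 h, where the difference was -1.41 to -1.81. LOV1, the CC-type gene that confers sensitivity to the fungal toxin victorin, did not pass at either time, at -0.06 (adjusted p = 0.878) and -0.09 (adjusted p = 0.788).

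Of the TIR-type genes with a known role, CSA1 and DSC1 fell. CSA1, which works with its neighbour CHS3, read 133 (Ri17) and 193 (Col-0) at MeJA 1 h and 226 (Ri17) and 164 (Col-0) at 4 h, against 362 (Ri17) and 360.0 (Col-0) untreated, with differences of -1.17 ± 0.25 (SE, adjusted p = 0.0111) and -0.91 ± 0.25 (SE, adjusted p = 0.0251). DSC1, a receptor gene studied for its link to the transcription factor CAMTA3, read 129 (Ri17) and 154 (Col-0) at 1 h and 139.5 (Ri17) and 146 (Col-0) at 4 h, against 219 (Ri17) and 255 (Col-0) untreated, with differences of -0.75 ± 0.16 (SE, adjusted p = 0.0125) and -0.73 ± 0.16 (SE, adjusted p = 0.0117). MeJA arrays and untreated arrays did not overlap for either gene, but the calls rest on single arrays. The 1 h call of CSA1 was lost without the Ri17 array at MeJA 1 h (-0.87) or the Ri17 untreated array (-1.13), and its 4 h call without the Col-0 array at MeJA 4 h (-0.58) or either untreated array. Each call of DSC1 was lost without either MeJA array of its time (-0.66 to -0.80). WRR4B, a paralogue of a white rust resistance gene, had 2 MeJA arrays at or under the floor at each time and differences of -0.24 (adjusted p = 0.597) and -0.24 (adjusted p = 0.58). TN2 and SOC3 were each Present on 1 array and were not tested. 247065_s_at, which the annotation assigns to the neighbours AT5G66910 and AT5G66900 (the helper genes NRG1.2 and NRG1.1), read 382 (Ri17) and 319 (Col-0) at 1 h and 344 (Ri17) and 298 (Col-0) at 4 h, against 489 (Ri17) and 475 (Col-0) untreated, differences of -0.46 (adjusted p = 0.116) and -0.59 (adjusted p = 0.0519).

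**Figure D3:**
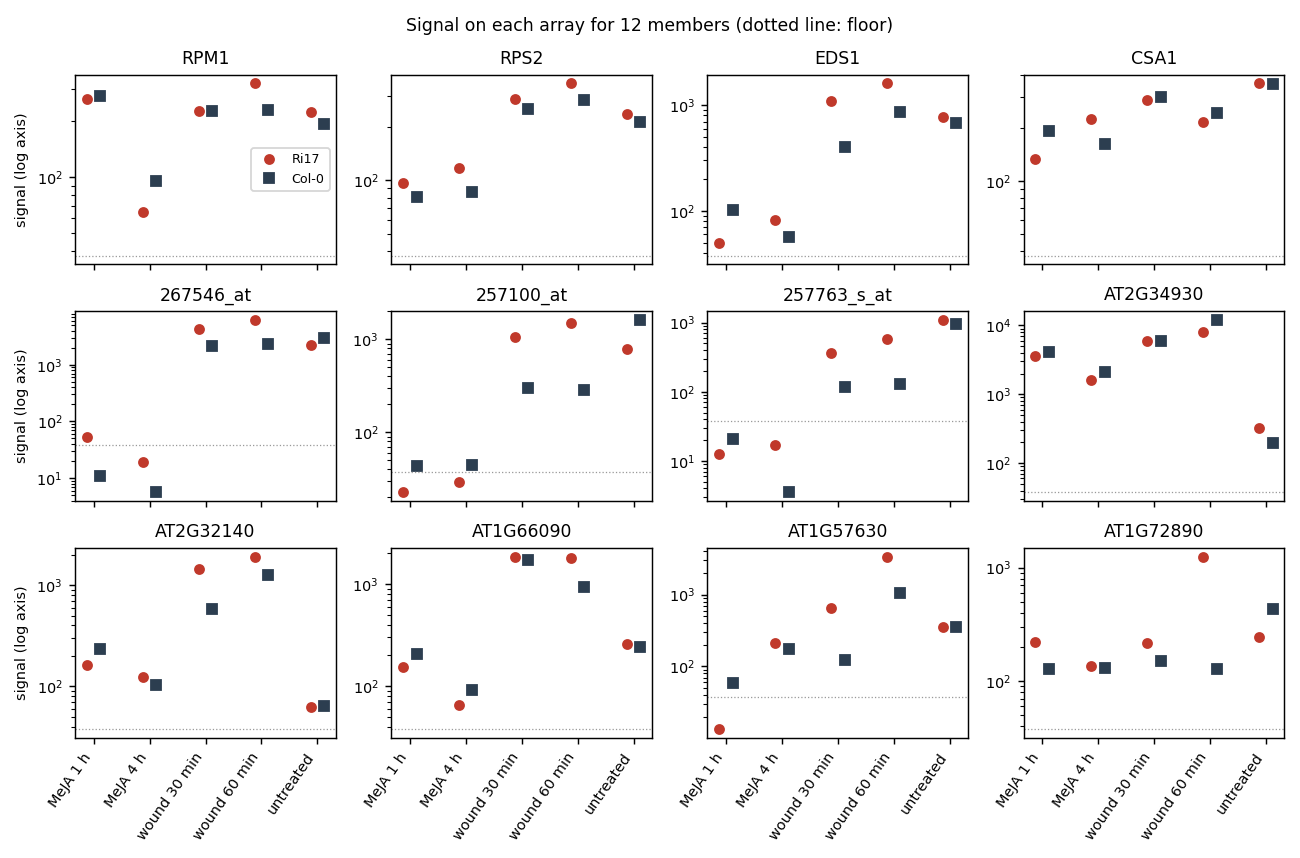
Signal on each array (log axis, arbitrary units after scaling) for 12 members, with circles for Ri17 and squares for Col-0 in each condition. The dotted line is the floor at 37.7. RPS2, EDS1, 267546_at, 257100_at and 257763_s_at are lowest on the 4 MeJA arrays, AT2G34930 is lowest in the untreated pair, and AT1G72890 reads 1245 on 1 array, Ri17 at 60 min after wounding.

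The few members that rose under MeJA numbered 15 over both times. AT2G34930, whose description names no class, had the largest difference. It read 3579 (Ri17) and 4073 (Col-0) at MeJA 1 h and 1591 (Ri17) and 2085 (Col-0) at 4 h, and 5983 (Ri17) and 5934 (Col-0) at 30 min and 8035 (Ri17) and 11989 (Col-0) at 60 min after wounding, against 329 (Ri17) and 199 (Col-0) untreated. All 8 treated arrays lay above the untreated pair. Its differences were 3.90 ± 0.31 (SE, adjusted p = 0.000245), 2.83 ± 0.31 (SE, adjusted p = 0.000603), 4.54 ± 0.31 (SE, adjusted p = 0.000168) and 5.26 ± 0.31 (SE, adjusted p = 6.27e-05) in that order of treatments. AT2G32140 read 161 (Ri17) and 232 (Col-0) at MeJA 1 h and 124 (Ri17) and 104 (Col-0) at 4 h, and 1443 (Ri17) and 587 (Col-0) and 1916 (Ri17) and 1266 (Col-0) at 30 and 60 min after wounding, against 62.7 (Ri17) and 63.7 (Col-0) untreated. Its wounding differences were 3.86 ± 0.39 (SE, adjusted p = 0.000762) and 4.62 ± 0.39 (SE, adjusted p = 0.00023), and its MeJA 1 h difference of 1.61 (adjusted p = 0.0194) lost its call without the Col-0 array at MeJA 1 h (1.08) or without either untreated array.

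2 neighbouring loci rose in all 4 treatments. AT1G33600 read 2949 (Ri17) and 2166 (Col-0) at MeJA 1 h, 4619 (Ri17) and 4547 (Col-0) at 4 h, 4323 (Ri17) and 4908 (Col-0) at 30 min and 3459 (Ri17) and 3771 (Col-0) at 60 min after wounding, against 726 (Ri17) and 1219 (Col-0) untreated. Its neighbour AT1G33590, chosen after its values were seen, had differences of 0.92 and 1.70 under MeJA and 2.19 and 1.91 after wounding, where AT1G33600 had 1.43, 2.28, 2.29 and 1.94. Both are likened to the same unnamed protein. The RPP5-like 245448_at also rose in all 4 treatments, by 0.84, 1.89, 2.23 and 2.14 on the log2 scale in the same order.

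Other members rose at 1 or both MeJA times. AT2G19780 read 863 (Ri17) and 1124 (Col-0) at MeJA 1 h and 272 (Ri17) and 444 (Col-0) at 4 h, against 246 (Ri17) and 204 (Col-0) untreated, with differences of 2.14 (adjusted p = 0.00488) and 0.63 (adjusted p = 0.217). 248845_at read 339.6 (Ri17) and 405 (Col-0) at 1 h and 106 (Ri17) and 129 (Col-0) at 4 h, against 87.5 (Ri17) and 96.7 (Col-0) untreated, with differences of 2.01 (adjusted p = 0.00173) and 0.35 (adjusted p = 0.354). Their 4 h minus 1 h differences passed the test, at -1.50 (adjusted p = 0.0358) and -1.67 (adjusted p = 0.00998). AT1G72940 read 1402 (Ri17) and 946 (Col-0) at 1 h and 1952 (Ri17) and 1665 (Col-0) at 4 h, against 273 (Ri17) and 424 (Col-0) untreated, with differences of 1.76 (adjusted p = 0.00629), which lost its call without the Ri17 array at 1 h (1.32), and 2.41 (adjusted p = 0.00136). The Cf-2-like 259297_at was under the floor on both arrays at MeJA 1 h and read 263 (Ri17) and 174 (Col-0) at 4 h, at least 5.67-fold higher (adjusted p = 0.00714) at 4 h than at 1 h. That call was lost without either 1 h array or without the Ri17 array at 4 h, at log2 sizes down to 2.27.

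Wounding raised members of the TIR-type and unspecified classes more often than it lowered them. At 30 min, 22 of the 147 rose and 7 fell, where 9.63% of all probe sets rose and 10.5% fell (20.1% together). At 60 min, 23 rose and 19 fell, where 12.1% of all rose and 16.1% fell (28.2% together). Of the 40 TIR-type probe sets, 10 rose and 0 fell at 30 min and 11 rose and 3 fell at 60 min, with medians of 0.29 and 0.33, against -0.08 and -0.14 over all probe sets. CC-type probe sets counted 1 higher and 0 lower at 30 min and 1 higher and 3 lower at 60 min. Cf/LRR-type probe sets counted 1 higher and 3 lower, then 1 higher and 5 lower. Of the 49 unspecified probe sets, 9 rose and 3 fell at 30 min and 9 rose and 7 fell at 60 min. The differences between classes were not tested here either. Without the Ri17 array at 30 min the 29 calls at 30 min became 17 (16 higher, 1 lower), and without the Ri17 untreated array the 42 calls at 60 min became 26 (12 higher, 14 lower).

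The RPS4-like 264153_at rose most among the TIR-type after wounding. It read 2837 (Ri17) and 2659 (Col-0) at 30 min and 1780.4 (Ri17) and 3391 (Col-0) at 60 min, against 355 (Ri17) and 229 (Col-0) untreated, with differences of 3.27 ± 0.41 (SE, adjusted p = 0.00182) and 3.11 ± 0.41 (SE, adjusted p = 0.00155). The RPP1-like AT1G66090 read 1851 (Ri17) and 1724 (Col-0) at 30 min and 1808 (Ri17) and 931 (Col-0) at 60 min, against 256 (Ri17) and 242 (Col-0) untreated, with differences of 2.84 ± 0.34 (SE, adjusted p = 0.00153) and 2.38 ± 0.34 (SE, adjusted p = 0.00222). The 4 wounded arrays lay above the other 6 for both genes, and both fell at MeJA 4 h, with log2 differences of -1.49 (adjusted p = 0.026) and -1.70 (adjusted p = 0.00751). AT5G22690, with an unspecified description, read 681 (Ri17) and 569 (Col-0) and 386 (Ri17) and 382 (Col-0) at 30 and 60 min, against 110.4 (Ri17) and 76.3 (Col-0) untreated, with differences of 2.76 ± 0.21 (SE, adjusted p = 0.000271) and 2.07 ± 0.21 (SE, adjusted p = 0.000496). Its wounded arrays too stood above all others.

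The RPP5-like probe sets showed both directions within one family. Of 11 tested, 3 were higher and 0 lower 30 min after wounding, and 3 were higher and 4 lower at MeJA 4 h. 245448_at read 1960.0 (Ri17) and 1646 (Col-0) at 30 min and 1998 (Ri17) and 1426 (Col-0) at 60 min, against 331 (Ri17) and 442 (Col-0) untreated, with differences of 2.23 ± 0.24 (SE, adjusted p = 0.000949) and 2.14 ± 0.24 (SE, adjusted p = 0.000755). AT4G16880 read 256 (Ri17) and 398 (Col-0) and 157 (Ri17) and 279 (Col-0) at 30 and 60 min, against 71.6 (Ri17) and 102 (Col-0) untreated, with differences of 1.90 ± 0.20 (SE, adjusted p = 0.000782) and 1.29 ± 0.20 (SE, adjusted p = 0.00282). In contrast AT5G40060, chosen after its values were seen, had -1.31 (adjusted p = 0.00349) at MeJA 1 h and -0.04 (adjusted p = 0.927) at 30 min of wounding. Of 18 tested RPP1-like probe sets, 5 were higher and 0 lower at 30 min, and 1 was higher and 4 lower at MeJA 1 h. At MeJA 1 h 15.7% of all probe sets were higher and 15.8% lower. Neither family was tested as a set. AT1G63750, one of 3 neighbouring RPP1-like loci, read 938 (Ri17) and 1024 (Col-0) at 30 min against 150.2 (Ri17) and 319 (Col-0) untreated, a difference of 2.16 ± 0.36 (SE, adjusted p = 0.00608), while its neighbours AT1G63740 and AT1G63730, given for comparison after their values were seen, had 0.65 (adjusted p = 0.293) and -0.18 (adjusted p = 0.759).

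RPS2, RPM1 and EDS1 did not pass the test after wounding. RPS2 read 286 (Ri17) and 253 (Col-0) at 30 min and 352 (Ri17) and 282 (Col-0) at 60 min, against 237 (Ri17) and 212 (Col-0) untreated, with differences of 0.26 (adjusted p = 0.329) and 0.49 (adjusted p = 0.067). The 60 min call for RPS2 passed at 0.49 to 0.60 under quantile scaling, median scaling, a higher floor or no detection filter. RPM1 had 0.12 (adjusted p = 0.783) and 0.38 (adjusted p = 0.318), and EDS1 had -0.15 (adjusted p = 0.878) and 0.70 (adjusted p = 0.36). At 30 min EDS1 read 1086 (Ri17) and 399 (Col-0), against 781 (Ri17) and 684 (Col-0) untreated. The genotypes moved in opposite directions there, which the additive fit averages. A probe set likened to NDR1, the membrane protein that CC-type receptors need, was chosen after its values were seen. It is 257083_s_at, described as a potential pseudogene, and read 1912 (Ri17) and 1343 (Col-0) at 30 min and 1389 (Ri17) and 846 (Col-0) at 60 min, against 371 (Ri17) and 349 (Col-0) untreated. Its ID ending marks a probe set that can match several transcripts, so closely related genes may share this signal. The signal rose after wounding, by 2.16 (adjusted p = 0.00158) and 1.59 (adjusted p = 0.00398), and fell under MeJA, with -2.30 (adjusted p = 0.000886) and -2.72 (adjusted p = 0.000348).

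Among the 7 members lower 30 min after wounding, 3 were Cf/LRR-type and 3 unspecified, and among the 19 lower at 60 min, 5 and 7 were. Of the 147 tested, 31 were Cf/LRR-type and 49 unspecified. Over all probe sets 10.5% were lower at 30 min and 16.1% at 60 min. AT2G15320, a leucine-rich repeat protein, read 190.2 (Ri17) and 153 (Col-0) at 30 min and 207 (Ri17) and 318 (Col-0) at 60 min, against 942 (Ri17) and 1031 (Col-0) untreated, with differences of -2.53 ± 0.26 (SE, adjusted p = 0.000782) and -1.94 ± 0.26 (SE, adjusted p = 0.00167). The Cf-2-like 261070_at read 103 (Ri17) and 168 (Col-0) at 30 min and 91.2 (Ri17) and 76.9 (Col-0) at 60 min, against 251 (Ri17) and 493 (Col-0) untreated, with differences of -1.41 ± 0.30 (SE, adjusted p = 0.0175) and -2.07 ± 0.30 (SE, adjusted p = 0.00249). Both also fell at each MeJA time. The leucine-rich repeat probe set 267596_s_at had -2.24 (adjusted p = 0.00371) at 60 min, and AT5G46270 had -1.70 (adjusted p = 0.00193). 257763_s_at had -2.32 (adjusted p = 0.0281) and -1.92 (adjusted p = 0.0419), calls that were lost without either untreated or either 30 min array at 30 min (sizes down to 1.79) and without any array but the Ri17 one at 60 min (down to 1.06). At 30 min AT1G64140 had -1.23 (adjusted p = 0.0492), lost without any 1 of 7 arrays (the exceptions were the Ri17 untreated array and both 60 min arrays; sizes down to 0.65). 265660_at had -1.22 (adjusted p = 0.0174), and its call and the 30 min call of 261070_at were lost without the Col-0 untreated array or either 30 min array, at sizes down to 0.94 and 1.02.

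Between the times of a treatment fewer members changed. From 30 to 60 min of wounding 0 of 147 rose and 5 fell, where 2.67% of all probe sets rose and 1.72% fell (4.39% together). AT1G72940 read 321 (Ri17) and 498 (Col-0) at 60 min against 1270.3 (Ri17) and 1492 (Col-0) at 30 min, a difference of -1.78 ± 0.32 (SE, adjusted p = 0.0351). AT5G46270 had -1.39 (adjusted p = 0.0299) and the RPP1-like AT3G04210 had -1.23 (adjusted p = 0.0241). The count of 5 became 0 when any 1 of 7 arrays was left out: either MeJA 1 h, either MeJA 4 h or either 30 min array, or the Ri17 array at 60 min. Between MeJA 4 h and 1 h, 3 rose and 13 fell, where 6.69% of all rose and 7.93% fell (14.6% together), and without the Ri17 array at 4 h, the Col-0 array at 4 h, the Ri17 array at 1 h or the Col-0 array at 1 h the 16 calls became 1, 3, 4 and 1. The TIR-type 259629_at read 183 (Ri17) and 205 (Col-0) at 4 h against 619 (Ri17) and 942 (Col-0) at 1 h, a difference of -1.98 ± 0.29 (SE, adjusted p = 0.00749).

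A direct comparison of wounding at 60 min with MeJA at 1 h needs no untreated array. Here 59 of the 147 were higher after wounding and 9 were lower, where 14.2% of all probe sets were higher and 20.3% lower (34.5% together). The median log2 difference of the 147 was 0.69, against -0.16 over all probe sets. Among the classes 17 of 40 TIR-type, 7 of 17 CC-type, 13 of 31 Cf/LRR-type and 18 of 49 unspecified probe sets were higher after wounding. The count of 68 became 36, 41 and 40 without the Ri17 array at MeJA 1 h, the Col-0 array at MeJA 1 h and the Ri17 array at 60 min of wounding.

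The largest of these differences were again members brought to the floor by MeJA. 267546_at was at least 84.9-fold higher (adjusted p = 0.000169) after wounding and the RPP1-like AT1G57630 at least 40.2-fold higher (adjusted p = 0.00169). AT1G57630 read 3384 (Ri17) and 1066 (Col-0) at 60 min of wounding against 13.4 (Ri17) and 59.3 (Col-0) at MeJA 1 h. RPS2 was higher after wounding too, at 1.83 ± 0.17 (SE, adjusted p = 0.000478), and EDS1, at 4.06 ± 0.51 (SE, adjusted p = 0.00159). In the other direction AT5G46450 read 122 (Ri17) and 136 (Col-0) after wounding against 614 (Ri17) and 568 (Col-0) at MeJA 1 h, a difference of -2.20 ± 0.22 (SE, adjusted p = 0.000709), and 248845_at had -2.17 (adjusted p = 0.0015).

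**Figure D4:**
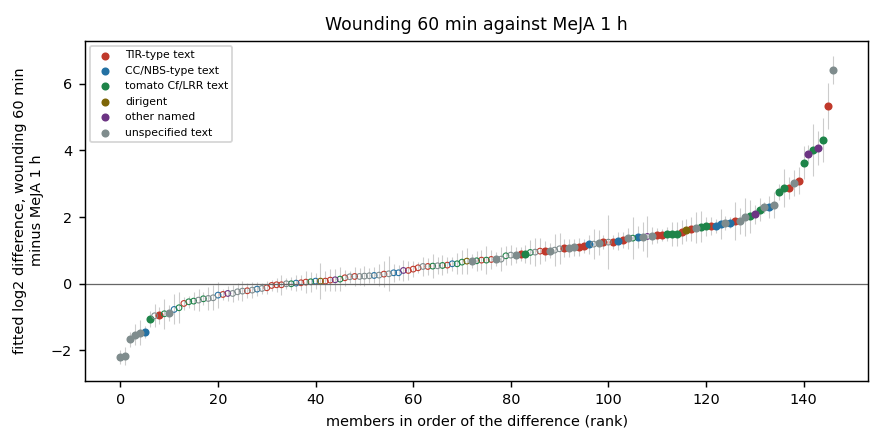
Fitted log2 difference between wounding at 60 min and MeJA at 1 h for the 147 tested probe sets, ordered by size, with the standard error as grey bars. Filled points passed an adjusted p of 0.05, and 59 of them lie above 0 and 9 below.

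The same split shows in the signals without a model. For 59 of the 147, all 4 MeJA arrays lay below all 4 wounded arrays, which holds for 13.0% of all probe sets, and for 3 they lay above, against 20.6%. All 4 MeJA arrays lay below the other 6 arrays for 45 members (7.97% of all probe sets) and above them for 1 (13.1%). All 4 wounded arrays lay above the other 6 for 19 members (5.3% of all), of which 9 were TIR-type, and below them for 2 (7.83%).

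Calls were also read along the chromosomes, with loci of runs chosen after their values were seen. Of the 143 members with 1 locus, 71 lie in 27 runs. Within a run each member lies at most 10 protein-coding gene positions from the one before, by the RefSeq annotation of TAIR10.1. The longest run spans AT1G72840 to AT1G72950 with 7 members, of which 4 were tested. In it AT1G72940 rose at both MeJA times and at 30 min of wounding (2.02), while AT1G72890, AT1G72860 and AT1G72950 passed no test against untreated. In the run of 5 members from AT5G45200 to AT5G45240 none was Present on 2 arrays. The pair AT4G36140 and AT4G36150 both fell at MeJA 4 h, over a range from -1.80 to -0.69.

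No member passed the test for a genotype difference. Ri17 minus Col-0 over all conditions gave 0 calls of 147 (0.0% of all probe sets), with 14 members and 951 probe sets in all at an unadjusted p under 0.05. Under MeJA it gave 0 (0.0% of all), with 10 members and 772 probe sets at an unadjusted p under 0.05. After wounding it gave 0 (0.0% of all), with 42 members and 2590 probe sets at an unadjusted p under 0.05. The difference of these 2 genotype effects also gave 0 (0.0% of all), with 31 members and 1483 probe sets at an unadjusted p under 0.05. When only probe sets Present on 5 or more arrays were tested, 3 of 117 members tested passed after wounding, where 0.131% of all 13706 probe sets under this filter were higher in Ri17 and 0.0365% lower. All 3 were Cf/LRR-type and higher in Ri17: 256431_s_at at 2.11, 257100_at at 2.09 and 257763_s_at at 1.90 on the log2 scale (adjusted p = 0.0334, 0.0412 and 0.0462). The spread behind these calls has 2 degrees of freedom and is drawn in part from the MeJA arrays. There these probe sets lay at or near the floor, where raising signals to it narrows the spread, so the adjusted p may be too small.

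Single arrays are compared below, so the following differences carry no test. A member counts when the floored signals of Ri17 and Col-0 lie 1 log2 unit or more apart and the higher array has a Present call. At 60 min after wounding 22 of the 147 were higher in Ri17 and 2 lower, where 4.54% and 3.29% of all probe sets were. At 30 min 13 were higher and 4 lower, against 2.27% and 2.23% of all. Higher in Ri17 at both times were 7 members (0.839% of all probe sets), and 0 were lower at both (0.507%). Of the 22 at 60 min, 9 were Cf/LRR-type, 9 unspecified, 2 TIR-type and 2 from other named entries. The median difference of the 147 was 0.23 at 60 min and 0.01 at 30 min, against -0.04 and -0.03 over all probe sets.

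**Figure D5:**
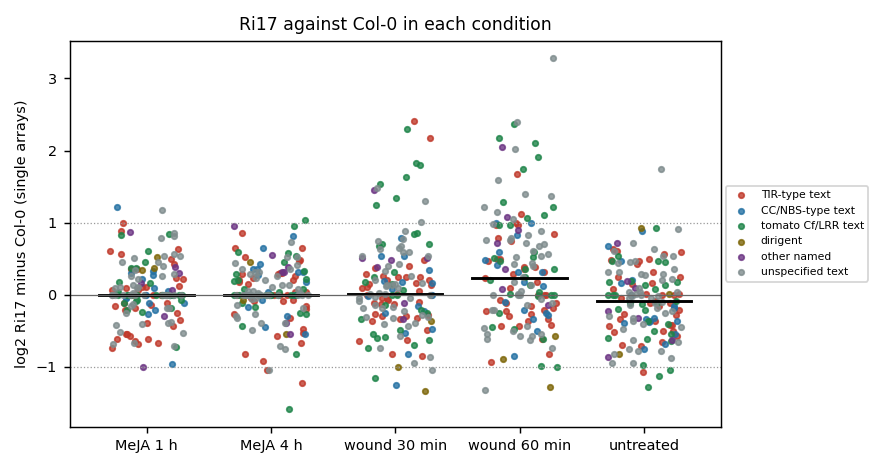
Log2 difference between the Ri17 and the Col-0 array of each condition for the 147 tested probe sets, coloured by description class, with the median as a black bar and dotted lines at -1 and 1. At 60 min after wounding 22 members count as higher in Ri17 and 2 as lower, and at MeJA 1 h 1 and 1.

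AT1G72890 had the largest genotype difference of any member in any condition. It read 1245 (Ri17) and 128 (Col-0) at 60 min after wounding, 218 (Ri17) and 151 (Col-0) at 30 min, and 243 (Ri17) and 429.7 (Col-0) untreated. Only the Ri17 array at 60 min stood apart. AT1G57630 read 653 (Ri17) and 123 (Col-0) at 30 min and 3384 (Ri17) and 1066 (Col-0) at 60 min, and 351 (Ri17) and 360.3 (Col-0) untreated, so the genotypes were close without treatment and apart at both wounding times. AT5G45000 read 342 (Ri17) and 65.2 (Col-0) at 60 min. The Cf/LRR-type 257100_at read 1058 (Ri17) and 300.5 (Col-0) at 30 min and 1486 (Ri17) and 287 (Col-0) at 60 min, and 788 (Ri17) and 1618 (Col-0) untreated, so Ri17 was higher after wounding and lower without treatment.

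Of the 7 members that count as higher in Ri17 at both wounding times, 4 were Cf/LRR-type: 257100_at, 256431_s_at, 257763_s_at and 257591_at. The others were AT1G57630, 267546_at and 248848_at. Here 257591_at and 248848_at were chosen after their values were seen. 256431_s_at read 1108 (Ri17) and 225 (Col-0) at 30 min and 1439.6 (Ri17) and 382 (Col-0) at 60 min, and 257763_s_at read 364 (Ri17) and 118 (Col-0) and 579.5 (Ri17) and 129 (Col-0). 257591_at read 139.9 (Ri17) and 48.4 (Col-0) at 30 min and 211 (Ri17) and 49.2 (Col-0) at 60 min. EDS1 read 1086 (Ri17) and 399 (Col-0) at 30 min and 1617 (Ri17) and 869 (Col-0) at 60 min. The RPS4-like AT1G57850 read 179 (Ri17) and 39.7 (Col-0) at 30 min. Members lower in Ri17 at 30 min were the pea response protein-like 254226_at, with 87.0 (Ri17) and 220.4 (Col-0), the NBS/LRR gene AT5G63020, with 55.9 (Ri17) and 133 (Col-0), the leucine-rich repeat probe set 267597_at, with 44.5 (Ri17) and 99.2 (Col-0), and AT1G51270, chosen after its values were seen, with 52.6 (Ri17) and 109 (Col-0). At 60 min AT2G19780, with 224 (Ri17) and 563 (Col-0), and the dirigent-like AT4G38700, with 77.8 (Ri17) and 189 (Col-0), were lower in Ri17. All 3 tested dirigent-like members were lower in Ri17 at each wounding time. In the fit after wounding, 8491 of all 15382 probe sets also lay below 0. Untreated, AT1G22900 was already lower in Ri17, with 134.5 (Ri17) and 236.9 (Col-0). There 254226_at was higher, with 198.8 (Ri17) and 105.3 (Col-0), and AT4G38700 was close, with 135.3 (Ri17) and 134.3 (Col-0).

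Without wounding few members counted as different between the genotypes, and few of all probe sets did. A probe set at or under the floor in both genotypes has a difference of 0 here, as 255319_at and 257763_s_at had at both MeJA times. Untreated, 1 member was higher and 4 lower in Ri17, where 3.13% and 2.43% of all probe sets were. 248979_at read 149 (Ri17) and 44.4 (Col-0), and lower in Ri17 were 251976_at with 45.8 (Ri17) and 112 (Col-0), 262529_at with 62.4 (Ri17) and 136 (Col-0) and AT1G63750 with 150.2 (Ri17) and 319 (Col-0), besides 257100_at. At MeJA 1 h AT1G63350 was higher, with 94.9 (Ri17) and 40.9 (Col-0), and EDS1 lower, with 49.9 (Ri17) and 101 (Col-0), against 0.8% and 0.345% in the whole set of probe sets. At MeJA 4 h 1 was higher and 3 were lower, where 0.904% and 0.8% of all were. These were 257592_at with 77.1 (Ri17) and 16.1 (Col-0), and AT1G63740 with 21.8 (Ri17) and 88.3 (Col-0), AT4G16880 with 104 (Ri17) and 215 (Col-0) and 258894_at with 40.2 (Ri17) and 83.0 (Col-0).

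The change calls in the authors' deposited table cover all 239 members. At 60 min after wounding the authors' deposited table marks 45 as increased in Ri17 against Col-0 and 9 as decreased, 18.8% and 3.77%, where it marks 9.84% and 9.16% of all probe sets. At 30 min the authors' deposited table marks 27 increased and 6 decreased, 11.3% and 2.51%, against 7.29% and 4.46% of all. For untreated plants it marks 8 increased and 19 decreased in the authors' deposited table, 3.35% and 7.95%, against 9.21% and 9.3% of all.

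Of 26 genes of the resistance pathway that were looked for, 6 had a named probe set and all 6 were tested, EDS1 and SAG101 among them. At MeJA 1 h 2 of the 6 fell and 0 rose, at 4 h 3 fell, and at each wounding time 2 fell and 0 rose. The 2 at MeJA 1 h were EDS1 and SAG101, already counted among the members above. Of all probe sets, 15.8% fell at MeJA 1 h, 18.7% at 4 h, 10.5% at 30 min and 16.1% at 60 min of wounding. The shares that rose were 15.7%, 18.8%, 9.63% and 12.1% in that order. SGT1A, a co-chaperone of resistance proteins, read 731 (Ri17) and 574 (Col-0) at MeJA 4 h and 869 (Ri17) and 565 (Col-0) at 30 min of wounding, against 1737 (Ri17) and 2118 (Col-0) untreated, with differences of -1.57 ± 0.25 (SE, adjusted p = 0.00283) and -1.45 ± 0.25 (SE, adjusted p = 0.00713). HSP90.2, the chaperone that RPM1 needs, had -1.58 (adjusted p = 0.00336) at 30 min and -1.26 (adjusted p = 0.00634) at 60 min of wounding and 0.45 (adjusted p = 0.181) at MeJA 1 h. RAR1, their partner, had differences between -0.25 and 0.33 in the 4 treatments, none past the test. ICS1, the salicylate synthesis enzyme, read 3551 (Ri17) and 572 (Col-0) at 60 min of wounding against 485 (Ri17) and 347 (Col-0) untreated, with a fitted difference of 1.80 (adjusted p = 0.0573).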

How the data were processed

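Signal was measured on 10 arrays of samples labelled as leaves of Ri17 and Col-0 plants, 1 array per genotype and condition. The authors deposited linear intensity values made with GCOS, per the submitters' processing notes, and detection p-values with Present calls, per the file headers. The deposited tables also give the authors' log2 ratio and change call for each Ri17 and Col-0 pair. Genome build and annotation are not given in the sources used here. Python 3.11.15 with pandas 2.3.3, R 4.3.3 and limma 3.58.1 were used. Signals under the 75th percentile of Absent signals (37.7) were raised to it before log2. Probe sets Present on 2 or more of 10 arrays (15382 of 22746) were fitted together in limma with genotype and condition as additive terms (4 residual degrees of freedom) and, for genotype within a treatment kind, with a genotype term per kind (2 degrees). Tests were two-sided with Benjamini-Hochberg adjustment at 0.05. The residual spread holds array noise together with any genotype difference in response, and precision is limited by there being 10 arrays. The code was tested on simulated data for a subset of the contrasts. For the genotype contrast after wounding it checked the mean estimate but set no minimum on how many changes were recovered.

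The members, gene lists and tests were chosen with earlier results of these data known, and the wording rules for the classes were written after the descriptions were read. Named members are the characterised resistance loci, the other pathway genes listed, the 5 highest and 5 lowest called members of each treatment with the same sign in both genotypes, 3 each way of other contrasts and of each single-array comparison. Alternatives were 2 scalings, 2 floors, 2 detection filters, an intensity trend, 1 probe set per gene, no shared probe sets and leaving out each array. Gene names come from the platform annotation and the descriptions. No sequences or coordinates are given.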

Additional observations from a re-analysis of the deposited data

Results flagged for a closer look

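8 of the members chosen for naming are listed because Ri17 and Col-0 moved in opposite directions from untreated by at least 0.5 on the log2 scale each. Among all 147 tested, 18 did so, and the other 10 are not listed here. Every one rests on single arrays and the differences between the genotypes were not tested.

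At 60 min after wounding, AT1G72890 stood at 2.36 in Ri17 and -1.74 in Col-0 against untreated, 4.10 apart, and 257100_at at 0.92 in Ri17 and -2.50 in Col-0, 3.42 apart. 256431_s_at stood at 0.75 in Ri17 and -1.57 in Col-0, 2.32 apart, and the Cf-2-like 259297_at at 0.63 in Ri17 and -0.98 in Col-0, 1.61 apart. At 30 min after wounding, AT1G57630 stood at 0.89 in Ri17 and -1.55 in Col-0, 2.44 apart. In the other direction, 248979_at stood at -1.49 in Ri17 and 0.84 in Col-0, a difference of -2.33, and 254226_at at -1.19 in Ri17 and 1.07 in Col-0, a difference of -2.26. At MeJA 1 h, 251976_at stood at 1.04 in Ri17 and -1.09 in Col-0, 2.13 apart. For all 8 the untreated arrays differed in the direction opposite to that difference, by 0.04 for AT1G57630, 0.41 for 256431_s_at and up to 1.75 for 248979_at on the log2 scale, and this offset is part of each value above.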

How the results depend on the processing

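Under the other settings 204 counts stayed within 1.5 times the reported value and 29 did not. These counts add both directions, so they do not show a change of direction. For wounding at 60 min the balance did turn: without the Ri17 untreated array more members fell than rose. Without a detection filter the members called were 9 for MeJA 4 h minus MeJA 1 h, 1 for wounding 60 min minus wounding 30 min and 40 for wounding 60 min minus MeJA 1 h. With Present calls on 5 or more arrays they were 8 for wounding 60 min minus wounding 30 min and 3 for Ri17 minus Col-0 after wounding. A lower and a higher floor gave 4 and 0 single-array differences at MeJA 1 h, against 2, and 9 and 1 at MeJA 4 h, against 4. Leaving out each array in turn gave 35 to 67 calls for MeJA 1 h, 43 to 70 for MeJA 4 h, 17 to 34 for wounding 30 min and 26 to 38 for wounding 60 min. It gave 1 to 19 for MeJA 4 h minus 1 h, 0 to 6 for wounding 60 min minus 30 min, 36 to 72 for wounding 60 min minus MeJA 1 h and 0 for each of the 4 genotype contrasts. In these fits the lone array of a condition is assumed to vary like the others. The cause of these moves was not tested. Scaling each array to one median moved the median of all probe sets at 60 min of wounding to -0.03, against -0.14, and the members' calls there to 25 higher and 17 lower. It moved the CC-type calls there to 2 higher and 3 lower. Of the named members' differences, 1333 kept direction and call, 112 lost the call and 14 gained one. Fits of the MeJA and untreated arrays alone, and of the wounded and untreated arrays alone, were added after seeing the data. The reported fit already compares conditions within each genotype through its genotype term. No paired analysis was possible because the labels number no replicates that could serve as a further block.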
